A study of Mus musculus with 15 samples.

Results

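The response of mouse colon to dextran sulfate sodium (DSS) was measured by total RNA sequencing in animals that carried VAA, a knock-in allele of Tert. Tert is the gene of the telomerase subunit that copies RNA into telomere DNA, and the series description calls the VAA product enzymatically inactive. The members were 5 of the 15 libraries of the series, chosen by their labels: 3 VAA DSS libraries and 2 untreated VAA libraries. Both groups came from mice 8 to 12 weeks old, and the treated mice drank 3% DSS for 4 days and plain water for 4 more before colon was taken on day 8. The other 10 libraries were wild type (WT) and Tert knockout (KO) colon under the same treatments and entered only to set the spread between replicates and to test differences between genotypes. The labels give tissue (colon), genotype and treatment, and they name neither the stretch or layer of colon sampled nor the cells kept. They list separate samples and do not state separate animals, so P values rest on sample-to-sample spread, which may be technical.

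DSS strips and injures the surface epithelium of the colon, after which luminal bacteria reach the tissue, neutrophils and monocytes enter, and surviving crypt cells spread and divide to close the wound. Around the crypts lie a stroma of fibroblasts and vessels, muscle layers that drive peristalsis, and the enteric nervous system within the muscle. A piece of whole colon mixes all of these, and in such bulk samples fewer cells of a type and less RNA per cell cannot be told apart.

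Gene levels are given as CPM (counts per M counts of a library, scaled by trimmed mean factors), in the order of replicate number, and a gene is said to have risen, fallen or been called where edgeR's quasi-likelihood test gave a Benjamini-Hochberg adjusted P under 0.05. Totals ran from 10.56 to 17.54 M counts in the 5 VAA libraries, and VAA DSS replicate 3 was the shallowest of all 15. That library stood apart from its group. The median absolute log2 difference between 2 libraries over 17477 tested genes was 0.246 for DSS replicates 1 and 2 and 0.230 for the untreated pair, but 0.417 and 0.488 for DSS replicate 3 against replicates 1 and 2. It lay at 102 on principal component 2, on which the other 14 libraries lay between -43.5 and 20.1. A set of 3 genes with identical counts in every library took 13.6% of its counts and 4.14% to 9.65% elsewhere. Mitochondrial genes took 2.49% of its counts, against 2.74% and 3.82% in the other DSS libraries and 3.64% and 3.85% in the untreated ones. Results are therefore given with and without it. Tert itself had 25 and 15 counts untreated and 29, 12 and 7 under DSS, so transcripts of the locus were present in all 5 libraries, against 0 or 1 count in each KO library. Its log2 fold change was -0.54 ± 0.50 (SE), adjusted P = 0.497 by edgeR, and the ranges overlapped. At the level of genes the VAA and WT alleles cannot be told apart.

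DSS changed 20.4% of the tested genes of VAA colon, with the nitric oxide synthase gene Nos2 among the 12 highest and the cytochrome gene Cyp2c55 among the 12 lowest. edgeR called 3571 of 17477 genes, of which 1904 (10.9%) rose and 1667 (9.54%) fell. The 3 DSS libraries did not overlap the 2 untreated ones for 7119 genes, 40.7% of those tested. The median log2 fold change over all tested genes was 0.06, and 0.05 with DESeq2 size factors, so changes below are read against a centre near 0. The count of calls depended on the libraries fitted. With the VAA libraries alone and without DSS replicate 3, edgeR called 3550 of 16532 genes, 2632 of them among the 3571. Leaving out VAA DSS replicate 3 gave 4902 calls of 17361 (28.2%), whereas leaving out untreated replicate 1 or 2 gave 1789 and 2039 and fitting the 5 VAA libraries alone gave 1089.

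The 12 genes that rose most, among those the naming rule allows, were led by S100a8, S100a9, Lrg1 and Plet1. Next came Nos2, the inducible nitric oxide synthase (chromosome 11, 78920787 to 78960254, plus strand of mm10), which had 1.36 and 4.94 CPM untreated and 729, 645 and 431 CPM under DSS. All 3 DSS libraries lay far above both untreated ones, with a log2 fold change of 7.61 ± 0.54 (SE) and adjusted P = 3.59e-06 by edgeR. Clca4b, a secreted regulator of the calcium-activated chloride channel family (chromosome 3, 144910921 to 144932529, minus strand), had 14.9 and 14.5 CPM untreated and 2428, 3243 and 2192 CPM under DSS. It was the most abundant of the 12, with a log2 fold change of 7.48 ± 0.31 (SE) (edgeR adjusted P = 4.31e-08), and reads of its close paralogs could be shared with it. Retnlb, a resistin-like protein that goblet cells secrete, had 0.286 and 0.256 CPM untreated and 29.02, 51.2 and 65.3 CPM under DSS, a log2 fold change of 7.43 ± 0.64 (SE). Lcn2, a lipocalin that binds bacterial iron carriers (chromosome 2, 32384633 to 32388252, minus strand), had 1.002 and 0.511 CPM untreated and 91.1, 37.1 and 122 CPM under DSS. The DSS libraries differed among themselves in these genes, but none came near the untreated pair. Hp, which encodes the haemoglobin scavenger haptoglobin, was lowest in DSS replicate 2, with 0.572 and 0.511 CPM untreated and 58.8, 25.9 and 102 CPM under DSS. Il1b, the inflammatory cytokine interleukin 1 beta, was lowest in DSS replicate 3, with 1.002 and 0.426 CPM untreated and 71.8, 79.4 and 28.3 CPM under DSS. Mfsd2a, a lysophospholipid transporter, and Tnfrsf8, the lymphocyte receptor CD30, rose by 6.54 and 5.81 on the log2 scale, at 29.96 to 45.03 CPM and 51.8 to 64.6 CPM under DSS. Both rose without DSS replicate 3 too, with log2 fold changes of 6.66 and 5.70 without it.

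The genes that fell most belonged to several families, with enzymes and secreted proteins of mature colonic epithelium among them. Cyp2c55, a cytochrome P450 of the colon (chromosome 19, 39007019 to 39042693, plus strand), had 221 and 285 CPM untreated and 0.662, 1.68 and 7.39 CPM under DSS. The DSS libraries were all far below the untreated pair, with replicate 3 the highest of the 3, and the log2 fold change was -6.43 ± 0.87 (SE) with it and -7.74 without it (edgeR adjusted P = 2.22e-04 and 4.54e-05). Sycn, which encodes the secretory granule protein syncollin (chromosome 7, 28540885 to 28542209, plus strand), had 449 and 633 CPM untreated and 3.97, 14.5 and 3.84 CPM under DSS. Klk1, the tissue kallikrein that goblet cells make, had 559.6 and 504 CPM untreated and 19.6, 41.3 and 16.4 CPM under DSS. Both fell in every DSS library, by 6.15 and 4.36 on the log2 scale. Klb, the co-receptor of endocrine fibroblast growth factors, fell by 4.34, and Slc37a2, a sugar phosphate exchanger, by 4.07 on the log2 scale. Slc37a2 spread widely among DSS libraries, at 17.7, 59.2 and 8.83 CPM, but stayed below the untreated 578 and 391 CPM.

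**Figure D1:**
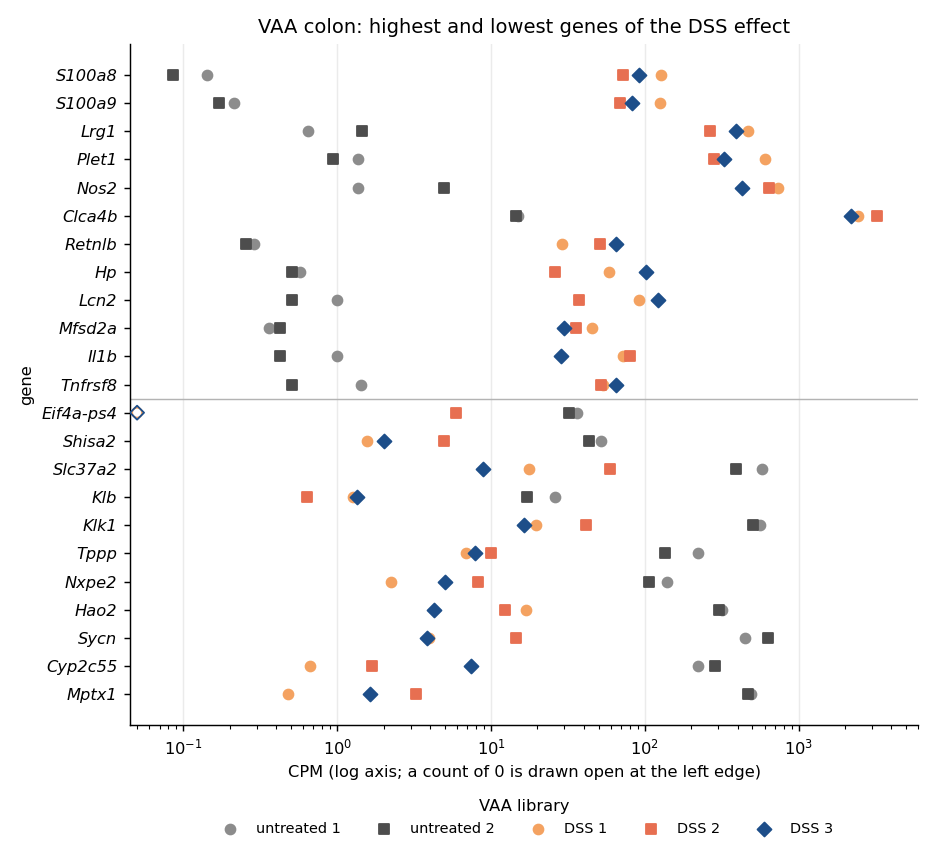
CPM of the 12 genes with the highest and of 11 of the 12 with the lowest log2 fold change in VAA colon (rows), on a log axis, with 1 point per library. Untreated libraries (grey and black) and DSS libraries (orange, red and blue) lie on opposite sides in every row, and DSS 3 (blue diamonds) lies within or near the other DSS libraries except in genes such as Cyp2c55.

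Many genes of surface epithelial function fell, and the summed level of general epithelial genes overlapped between the groups. Of 20 tested genes of absorptive colonocytes, 12 fell and 0 rose, with a median log2 fold change of -1.44 against 0.06 over all genes. Slc26a2, a sulfate and chloride transporter, had 1946 and 1685 CPM untreated and 424, 383 and 492 CPM under DSS. Slc26a3, the chloride and bicarbonate exchanger of the colonic surface, had 1467 and 1148 CPM untreated and 426, 403 and 372 CPM under DSS. In both the groups were far apart, with log2 fold changes of -2.07 ± 0.21 (SE) and -1.71 ± 0.23 (SE) and edgeR adjusted P of 2.87e-05 and 2.37e-04. The chloride channel gene Cftr fell by 2.11, the sodium and proton exchanger gene Slc9a2 by 2.13, the carbonic anhydrase gene Car2 by 1.60 and the butyrate transporter gene Slc5a8 by 1.45 on the log2 scale. Not every surface gene was called: the guanylin gene Guca2a had 183 and 94.6 CPM untreated and 28.9, 23.7 and 88.2 CPM under DSS (log2 fold change -1.58, edgeR adjusted P = 0.0614, and -2.40, 0.00282, without DSS replicate 3). Without that library 13 of the 20 fell and the median was -1.44. Of 15 tested genes that colonic epithelial cells share 2 fell (the cadherin gene Cdh1 by 0.53 and the nuclear receptor gene Hnf4a by 0.78) and 0 rose. Over all tested genes 9.54% fell and 10.9% rose. Without DSS replicate 3, 2 of the 15 rose and 2 fell, beside 15.5% higher and 12.8% lower over all genes. The summed level of the 15 was 12036 and 12189 CPM untreated and 11031, 12988 and 10407 CPM under DSS, with overlapping ranges, and their median log2 fold change was -0.02.

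Most tested genes of enzymes that metabolise drugs, dietary compounds and steroids fell. Of 22 tested genes of xenobiotic metabolism 15 fell and 1 rose, with a median log2 fold change of -1.53, and 17 fell without DSS replicate 3. Their summed level was 2681 and 3055 CPM untreated and 965, 1279.5 and 779 CPM under DSS. Sult1a1, a phenol sulfotransferase, had 163 and 129 CPM untreated and 11.5, 18.1 and 22.8 CPM under DSS, a log2 fold change of -3.07 ± 0.31 (SE). The glutathione transferase gene Gstm1 fell by 2.09, Gstm3 of the same class by 2.99 and the carboxylesterase gene Ces2a by 2.47 on the log2 scale. The gene that rose was Gsta1, an alpha class glutathione transferase, with 6.37 and 7.58 CPM untreated and 26.8, 41.98 and 46.96 CPM under DSS (log2 fold change 2.47 ± 0.26 (SE), edgeR adjusted P = 3.11e-05). Members of both glutathione transferase classes have close paralogs, so their read assignment is uncertain.

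Most tested genes of wound-closing epithelium rose, and more stem cell and goblet cell genes fell than rose. Plaur, the urokinase receptor, had 3.15 and 3.49 CPM untreated and 41.1, 33.7 and 35.4 CPM under DSS. Sprr1a, a cornified envelope precursor, had 1.36 and 1.704 CPM untreated and 21.7, 26.3 and 15.9 CPM under DSS. Each DSS library exceeded both untreated ones, with log2 fold changes of 3.47 ± 0.25 (SE) and 3.80 ± 0.32 (SE) and edgeR adjusted P of 3.59e-06 and 8.36e-06. Of 20 tested genes of repairing epithelium 15 rose and 0 fell, and the summed level was 825 and 825 CPM untreated and 2790.2, 2809.6 and 3191 CPM under DSS. Anxa1, a calcium-dependent membrane protein of healing epithelium, had 132 and 133 CPM untreated and 304, 405 and 436 CPM under DSS and rose without replicate 3 too, with log2 fold changes of 1.53 ± 0.19 (SE) and 1.42 (edgeR adjusted P = 1.19e-04 and 1.11e-04). The crypt stem cell receptor gene Lgr5 had 13.6 and 18.3 CPM untreated and 2.35, 6.24 and 2.21 CPM under DSS, a log2 fold change of -2.12 ± 0.45 (SE). Of 17 tested stem cell and Wnt target genes 6 fell, the Wnt feedback gene Znrf3 and the crypt transcription factor gene Sox9 among them, and 2 rose, the adhesion receptor gene Cd44 and the ephrin receptor gene Ephb2. Of 19 tested goblet cell genes 10 fell and 2 rose, Retnlb and the mucin glycosyltransferase gene Galnt12. Enteroendocrine genes did not move one way: Insl5, a peptide of distal colon L cells, fell by 0.96 on the log2 scale, while the proglucagon gene Gcg rose by 1.23, at 8.66 and 8.94 CPM untreated and 22.5, 13.01 and 26.6 CPM under DSS. Of the 12 tested 2 rose and 1 fell, and of 8 tested tuft cell genes 1 fell. Counts this small cannot be set apart from the shares of all tested genes, 10.9% higher and 9.54% lower. Squamous genes were low throughout, with a summed level of 1.503 and 2.04 CPM untreated and 15.2, 7.401 and 20.5 CPM under DSS, and 3 of 4 tested rose.

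**Figure D2:**
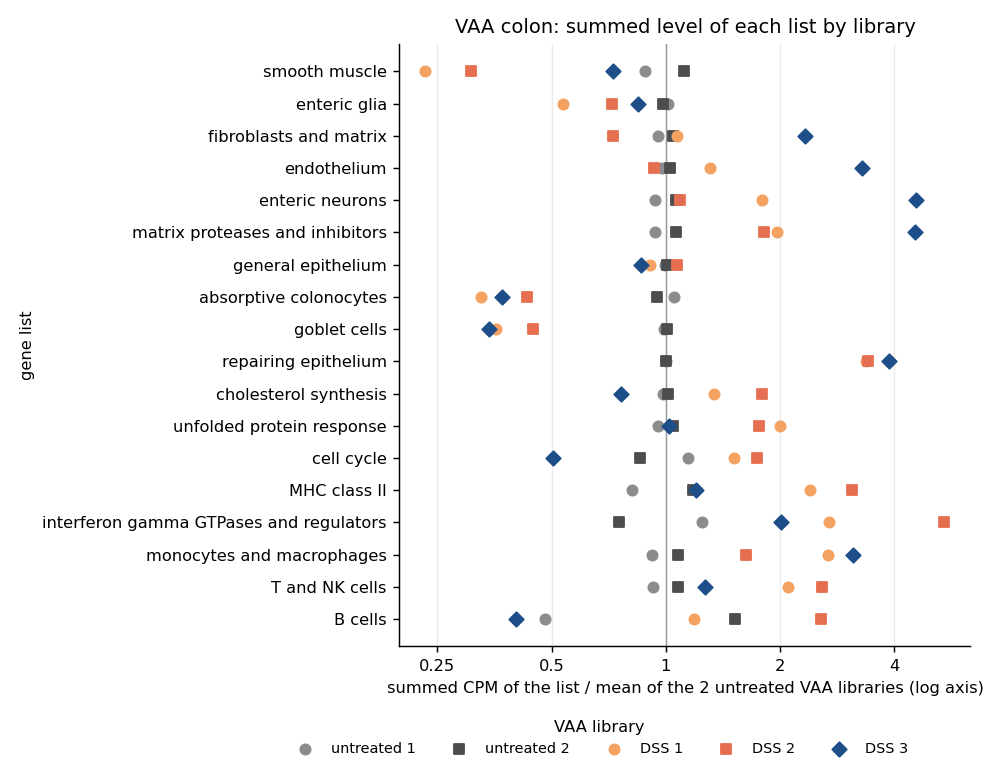
Summed CPM of each gene list in each VAA library divided by the mean of the 2 untreated VAA libraries, on a log axis, with 1 point per library and a line at 1. DSS 3 (blue diamonds) lies to the right of the other DSS libraries for smooth muscle, fibroblasts, endothelium, enteric neurons and matrix proteases, and to the left for cholesterol synthesis, cell cycle, MHC class II and B cells, while absorptive and goblet genes lie together in all 3.

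Genes of the chemokines that draw neutrophils rose in VAA colitis. Cxcl1, Cxcl2, Cxcl3 and Cxcl5 encode ligands of the neutrophil receptor Cxcr2 and lie together on chromosome 5 (90759360 to 90905938). Their transcription is known to be driven by NF-kappaB in many cells. The 150 bases just before the start of Cxcl1, Cxcl2 and Cxcl3 are shown because these 3 members rose together and each holds the same run of letters, in capitals, that matches the kappaB site on both strands. They are RefSeq sequences of GRCm38.p6, 5′ to 3′ on the strand of the gene.
Cxcl1 (chr5:90891095-90891244, plus strand): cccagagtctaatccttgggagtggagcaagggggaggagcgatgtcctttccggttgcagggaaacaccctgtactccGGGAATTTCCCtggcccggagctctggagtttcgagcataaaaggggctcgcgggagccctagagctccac
Cxcl2 (chr5:90903749-90903898, plus strand): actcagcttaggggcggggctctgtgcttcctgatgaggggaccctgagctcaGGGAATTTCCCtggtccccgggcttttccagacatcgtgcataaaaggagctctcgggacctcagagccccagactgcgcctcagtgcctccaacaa
Cxcl3 (chr5:90785951-90786100, plus strand): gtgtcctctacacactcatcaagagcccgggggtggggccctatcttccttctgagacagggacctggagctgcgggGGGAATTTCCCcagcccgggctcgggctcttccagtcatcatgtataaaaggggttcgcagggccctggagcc

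A kappaB match was found in the 250 bases upstream of 4 of the 9 tested CXC chemokine genes with a promoter in the table (44.4%; Cxcl1, Cxcl2, Cxcl3 and Cxcl10), and of 4.46% of all 27025 genes with one. Cxcl1, Cxcl2 and Cxcl3 hold the same run of letters, so they are not independent examples. A kappaB match was also held by 3 of 16 smooth muscle genes with a promoter (18.8%) and by 0 of 21 neutrophil genes. It was held by 18.2% of 11 interferon gamma GTPase and regulator genes and 7.69% of 13 absorptive colonocyte genes. A match describes letters in a window and was not linked to binding here, and 3 tested members had no window. Cxcl2 had 0.0716 and 0.256 CPM untreated and 34.4, 27.9 and 28.1 CPM under DSS, and Cxcl5 had 3.29 and 7.495 CPM untreated and 179, 209.8 and 135 CPM under DSS. Cxcl1 had 0.358 and 0.681 CPM untreated and 6.38, 7.23 and 7.11 CPM under DSS, and Cxcl3 had 1.503 and 0.937 CPM untreated and 15.2, 12.4 and 10.1 CPM under DSS. In all 4 genes the 3 DSS libraries lay close together and above both untreated libraries. Log2 fold changes were 7.51 ± 0.55 (SE) for Cxcl2, 5.03 ± 0.48 (SE) for Cxcl5, 3.73 ± 0.68 (SE) for Cxcl1 and 3.35 ± 0.41 (SE) for Cxcl3, with edgeR adjusted P from 3.59e-06 to 0.00180. Of 12 tested CXC genes 8 rose and 0 fell, with a median log2 fold change of 3.12. Cxcl9 and Cxcl10, ligands of the T cell chemokine receptor Cxcr3 and interferon gamma targets, were lower in DSS replicate 3, at 9.41 and 6.43 CPM, than in replicates 1 and 2, at 36.9 and 60.9 CPM and 21.1 and 34.8 CPM. Of 16 tested CC chemokine genes 6 rose and 1 fell, beside 10.9% higher and 9.54% lower over all tested genes. The T cell attractant gene Ccl5 had 1.43 and 0.852 CPM untreated and 14.2, 10.3 and 3.36 CPM under DSS (log2 fold change 3.02 ± 0.60 (SE)), again lowest of the DSS libraries in replicate 3. The gene that fell was Ccl6, a myeloid chemokine, by 1.24 on the log2 scale. Of 15 tested cytokine genes 9 rose, with a median log2 fold change of 3.18 and of 2.72 where members with at most 3 untreated counts were put at their floor. Il11, a cytokine of stromal cells, rose by 3.50 and the leukaemia inhibitory factor gene Lif by 1.498 on the log2 scale. Il6 had 2 counts over both untreated libraries, and the scaled ratio under DSS was 40.9 (95% counting interval 11.1 to 341).

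Of 15 tested antimicrobial and oxidant defence genes 8 rose and 2 fell, beside 10.9% higher and 9.54% lower over all tested genes. The serum amyloid gene Saa3 had 4.72 and 3.92 CPM untreated and 146, 64.6 and 167 CPM under DSS, and Slpi, an antiprotease that also kills bacteria, had 5.08 and 4.003 CPM untreated and 64.3, 77.2 and 203 CPM under DSS. Slpi was highest in DSS replicate 3 and rose without it too, with log2 fold changes of 4.65 ± 0.49 (SE) and 3.95. The hydrogen peroxide source Duox2 had 115 and 264 CPM untreated and 1028, 990.3 and 764 CPM under DSS and rose by 2.29 on the log2 scale (edgeR adjusted P = 3.28e-04). Reg3b, a bactericidal lectin, had 0 counts in both untreated libraries and was at least 188-fold higher under DSS, against a floor of 3 counts over the untreated group. The genes that fell were the antiprotease gene Wfdc2 and Pigr, the receptor that carries antibody into the lumen, by 1.05 and 1.03. Nox1, the oxidase of crypt epithelium, had 22.4 and 27.001 CPM untreated and 52.8, 99.6 and 5.28 CPM under DSS. Replicates 1 and 2 were above the untreated pair and replicate 3 was below it, so the call rested on that library: log2 fold change 1.10 ± 0.68 (SE), adjusted P = 0.290, with it and 1.62, adjusted P = 7.92e-04, without it (edgeR).

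Interferon gamma, a cytokine of T and natural killer cells, acts through a transcription factor that binds gamma activated sites (GAS elements), and induces GTPases that attack microbes inside cells. Most tested genes of this group rose in VAA colitis. Of 22 tested genes 17 rose and 0 fell, with a median log2 fold change of 2.42. Of type I interferon stimulated genes 1 of 28 tested rose (the tetherin gene Bst2, by 1.16) and the median was 0.39. The difference between the lists was not tested, and many genes of each respond to both interferons. The 150 bases before the start of Igtp and Irgm2, neighbouring GTPase genes, and of the regulator gene Irf1 are shown because they hold a GAS element within that window, TTCNNNGAA on either strand, in capitals. The sequences are those of RefSeq on GRCm38.p6, 5′ to 3′ on the strand of the gene, and Irf1 has a second listed start whose window holds no match. The Igtp and Irgm2 windows share long runs of letters around the element, so they are not independent examples.
Igtp (chr11:58199406-58199555, plus strand): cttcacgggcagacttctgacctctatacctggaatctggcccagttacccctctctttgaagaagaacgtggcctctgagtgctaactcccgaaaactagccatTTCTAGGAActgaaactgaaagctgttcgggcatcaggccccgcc
Irgm2 (chr11:58214827-58214976, plus strand): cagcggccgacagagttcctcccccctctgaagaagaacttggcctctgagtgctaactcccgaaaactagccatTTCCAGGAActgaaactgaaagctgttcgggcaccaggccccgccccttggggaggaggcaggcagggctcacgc
Irf1 (chr11:53769864-53770013, plus strand): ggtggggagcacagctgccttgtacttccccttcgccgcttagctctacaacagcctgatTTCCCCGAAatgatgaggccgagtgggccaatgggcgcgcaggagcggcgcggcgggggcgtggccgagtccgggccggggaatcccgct

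A GAS element was found upstream of 7 of the 11 genes of the list with a promoter in the table (63.6%; of 22 tested) and of 8.13% of all genes with one. The near-identical pair Tgtp1 and Tgtp2 makes up 2 of the 7 in this. The match is a description, and the genes that hold it did not all rise. Igtp had 21.8 and 6.98 CPM untreated and 49.8, 141 and 28.4 CPM under DSS and was called (log2 fold change 2.34 ± 0.76 (SE), edgeR adjusted P = 0.0442). Irgm2 had 55.4 and 20.1 CPM untreated and 61.4, 135 and 73.3 CPM under DSS and was not (log2 fold change 1.25 ± 0.54 (SE), edgeR adjusted P = 0.123). In both genes the groups did not overlap, and DSS replicate 2 was the highest library by far. Irf1 had 174 and 127 CPM untreated and 175, 285 and 161 CPM under DSS and a log2 fold change of 0.46 ± 0.31 (SE) (edgeR adjusted P = 0.328), with overlapping groups. Ido1, which degrades tryptophan, had 2.72 and 1.62 CPM untreated and 89.4, 153 and 89.7 CPM under DSS and rose by 5.65 on the log2 scale, and the feedback inhibitor gene Socs1 rose by 3.78. Gbp4, Gbp5 and Gbp9, guanylate binding proteins, rose by 2.95, 2.28 and 2.45, although close copies in this family can share reads. DSS replicate 3 was the lowest DSS library in 19 of the 22 genes of the list, where 41.7% of all tested genes had it below both others, and the summed level was 651 and 392 CPM untreated and 1409, 2834 and 1047 CPM under DSS.

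MHC class II genes, which present antigen to T cells, were also lowest in replicate 3 among the DSS libraries. Of 9 tested MHC class II genes 4 rose, and replicate 3 was below both other DSS libraries in 9, against 41.7% of all tested genes. H2-Ab1, a class II beta chain, had 32.8 and 40.3 CPM untreated and 111, 119.6 and 51.3 CPM under DSS, and Cd74, the class II invariant chain, had 111 and 148 CPM untreated and 354, 457 and 194 CPM under DSS. In both genes replicates 1 and 2 lay far above the untreated pair and replicate 3 just above it, with log2 fold changes of 1.37 and 1.37 with replicate 3 and 1.66 and 1.64 without it. Of 20 tested T and natural killer cell genes 8 rose, and 12 rose without replicate 3. Ctla4, a brake on T cell activation, had 0.429 and 0.511 CPM untreated and 3.73, 3.93 and 2.21 CPM under DSS, a log2 fold change of 2.80 ± 0.51 (SE). Il2rb, a chain of the receptor for interleukin-2, rose by 2.14 and Foxp3, the transcription factor of regulatory T cells, by 1.01 on the log2 scale. The core receptor genes Cd4, Cd8a and Cd3d were not called, at log2 fold changes of -0.01, 0.17 and 0.28. No B cell gene of 12 tested was called, with or without replicate 3, and the summed level was 43.6 and 138 CPM untreated and 108, 233 and 36.7 CPM under DSS, so the groups overlapped and replicate 3 was lowest. At an unadjusted P under 0.05 edgeR called 0 of them, and DESeq2, limma and voom called 0 after adjustment. Of 9 tested plasma cell genes 2 rose and 1 fell, beside 10.9% higher and 9.54% lower over all tested genes. Jchain, the joining chain of secreted antibody, fell by 2.32 on the log2 scale, at 105 and 118 CPM untreated and 18.3 to 25.7 CPM under DSS, while Prdm1, a factor of plasma cells that epithelium also expresses, rose by 2.37.

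Most tested genes of neutrophils, the first cells to enter injured tissue, rose, as did many of monocytes. Csf3r, the receptor of granulocyte colony stimulating factor, had 1.43 and 1.79 CPM untreated and 35.4, 29.3 and 22.5 CPM under DSS, with the 3 DSS libraries close together (log2 fold change 4.17 ± 0.31 (SE)). Retnlg, a neutrophil granule gene, had 0 untreated counts and was at least 217-fold higher against the floor of 3 counts, and Ltf, lactoferrin, had 3, a ratio of 297 (95% counting interval 101 to 1440). Of 21 tested neutrophil genes 18 rose and 0 fell. Chil3, a chitinase-like gene of monocytes, had 0.143 and 0.341 CPM untreated and 54.2, 17.3 and 53.9 CPM under DSS, and Itgam, the integrin alpha M, had 8.23 and 10.8 CPM untreated and 78.6, 46.02 and 93.3 CPM under DSS. Every DSS library exceeded the untreated pair in both, and replicate 2 was the lowest of the DSS libraries. Of 20 tested monocyte and macrophage genes 11 rose, among them the lipopolysaccharide co-receptor gene Cd14 and the Fc receptor gene Fcgr1 (log2 fold changes 1.63 and 2.50), and 1 fell, the receptor gene Mertk of resident macrophages, by 0.70. The macrophage genes Adgre1 and Mrc1 were not called, at 0.63 and -0.41. Complement and acute phase genes rose: 12 of 14 tested, with a summed level of 365 and 442 CPM untreated and 2035, 1383 and 2879.8 CPM under DSS. Cp, the copper-carrying ferroxidase ceruloplasmin, had 12.5 and 12.9 CPM untreated and 37.8, 52.04 and 61.6 CPM under DSS (log2 fold change 1.99 ± 0.27 (SE), edgeR adjusted P = 2.14e-04), with no overlap between groups. C3, the central complement component, had 68.6 and 99.1 CPM untreated and 753, 319 and 1368 CPM under DSS, with replicate 3 the highest and a log2 fold change of 3.28 ± 0.48 (SE), or 2.67 without it. Of 6 tested mast cell and eosinophil genes 1 rose, the eosinophil receptor gene Il5ra, beside 10.9% of all tested genes.

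Many genes of sugar breakdown and protein folding rose, while no mitochondrial respiration gene was called. Pfkfb3, which makes the activator of glycolysis, had 12.1 and 17.4 CPM untreated and 98.97, 91.9 and 168 CPM under DSS, a log2 fold change of 3.02 ± 0.33 (SE). Of 19 tested glycolysis and hypoxia genes 11 rose and 0 fell, the phosphoglycerate kinase gene Pgk1 by 1.06 and the folding oxidase gene Ero1l by 1.42 among them. Of 27 tested respiratory chain and Krebs cycle genes edgeR called 0, and 1 at an unadjusted P under 0.05. DESeq2 and limma called 1 each, lower, voom 2, higher, and edgeR without replicate 3 called Cyc1 and Uqcrfs1, both higher. Of 19 tested fatty acid oxidation and PPAR target genes 6 fell, the peroxisomal enzyme gene Ehhadh by 1.20 and the mitochondrial dehydrogenase gene Acadm by 0.94, and 1 rose, the dehydrogenase gene Acadl by 0.67. Asns, asparagine synthetase, a target of the stress factor Atf4, had 11.5 and 14.4 CPM untreated and 95.8, 72.6 and 41.2 CPM under DSS. All DSS libraries were above the untreated pair and replicate 3 was the lowest of them, with a log2 fold change of 2.44 ± 0.31 (SE). Of 20 tested genes of the unfolded protein response 10 rose, and 18 rose without replicate 3. Their summed level was 2692 and 2955 CPM untreated and 5658, 4980.3 and 2875 CPM under DSS, so that replicate 3 lay within the untreated range.

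Cholesterol synthesis and cell division genes were likewise lowest in replicate 3 among the DSS libraries. Mvd, mevalonate diphosphate decarboxylase, had 17.03 and 16.7 CPM untreated and 38.5, 43.4 and 19.97 CPM under DSS, and Fdps, farnesyl diphosphate synthase, had 59.3 and 50.8 CPM untreated and 105, 137 and 51.1 CPM under DSS. In both, replicates 1 and 2 were above the untreated pair and replicate 3 was near it. Mvd rose with and without replicate 3, by 1.02 and 1.28 (edgeR adjusted P = 0.0130 and 7.64e-05), and Fdps rose only without it, by 1.14 (adjusted P = 0.0546 with it and 1.52e-04 without it). Of 20 tested genes 4 rose with replicate 3 and 13 without it, and 1 fell in both, Dhcr7, the last enzyme of the pathway, by 1.08 with it. Replicate 3 was below both other DSS libraries in all 20 tested genes of this list and all 20 of the cell cycle list. Over all tested genes it was so for 41.7%. Summed cell cycle levels were 1393 and 1044 CPM untreated and 1841, 2122 and 613 CPM under DSS. Replicates 1 and 2 were above both untreated libraries and replicate 3 was below them, the lowest of the 5. The proliferation antigen gene Mki67 had 476 and 339 CPM untreated and 526, 677 and 154 CPM under DSS, a log2 fold change of 0.15 ± 0.44 (SE) with replicate 3 and 0.56 without it, called in neither fit. With all libraries 1 of 20 tested cell cycle genes rose, the ribonucleotide reductase gene Rrm2 by 1.37, and 13 rose without replicate 3.

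The summed level of smooth muscle genes was below both untreated libraries in every DSS library, and least so in replicate 3. Actg2, the gamma actin of visceral smooth muscle, had 401 and 494 CPM untreated and 37.6, 77.2 and 123 CPM under DSS, and Myh11, its myosin heavy chain, had 1461 and 2110.0 CPM untreated and 222, 349.8 and 848 CPM under DSS. No DSS library reached the untreated pair, and replicate 3 was the highest of the 3 in both, at 848 CPM for Myh11. Log2 fold changes were -2.50 ± 0.49 (SE) and -1.92 ± 0.51 (SE) with all libraries, and -2.96 and -2.65 without replicate 3. Of 20 tested smooth muscle genes 11 fell with all libraries and 18 without replicate 3, and the median log2 fold change went from -1.16 to -1.87. The summed level was 7579 and 9604 CPM untreated and 1997, 2639 and 6255 CPM under DSS, in WT colon 1659 to 2329 CPM under DSS. Replicate 3 thus held 2.70 times the mean of the other 2 DSS libraries and 0.728 times that of the untreated ones. All 20 genes were above both other DSS libraries in replicate 3, where 41.4% of all tested genes were. Of 5 tested pacemaker cell genes 2 fell, beside 9.54% of all tested genes. They were the chloride channel gene Ano1, by 2.04, and the receptor gene Kit, by 0.91, Ano1 with replicate 3 the lowest. A CArG box, the site of serum response factor, was found upstream of 1 of 16 smooth muscle genes with a promoter in the table (6.25%, Myl9), and of 1.62% of all genes with one.

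The summed levels of enteric neuron, fibroblast, endothelial and mesothelial genes were above both untreated libraries in DSS replicates 1 and 3, and highest in replicate 3. Vip, a relaxing neuropeptide, had 22.04 and 21.04 CPM untreated and 34.4, 12.95 and 118 CPM under DSS, and Nos1, the neuronal nitric oxide synthase, had 22.1 and 25.1 CPM untreated and 30.3, 15.5 and 109.8 CPM under DSS. Replicates 1 and 2 lay on either side of the untreated pair, and replicate 3 was far above all 4. Neither gene was called, with edgeR adjusted P of 0.190 and 0.255 with it and 0.872 and 0.954 without it. The summed level of 20 enteric neuron genes was 130.2 and 148 CPM untreated and 249, 152 and 637 CPM under DSS, and that of replicate 3 was 4.58 times the untreated mean. The 2 of 20 tested neuron genes that rose were Tac1, the precursor of substance P, and Ret, the receptor of enteric precursors. Tac1 had 8.01 and 8.52 CPM untreated and 58.9, 62.7 and 73.6 CPM under DSS and rose without replicate 3 too, with log2 fold changes of 2.98 ± 0.25 (SE) and 2.88. Ret also rose in both fits, although replicate 2 at 14.8 CPM was close to the untreated 10.2 and 12.9 CPM. Fibroblast and matrix genes summed to 3833 and 4202 CPM untreated and 4301, 2919 and 9347 CPM under DSS, and endothelial genes to 143 and 149.9 CPM untreated and 192, 136 and 483 CPM under DSS. In both lists replicate 3 exceeded every WT and KO library as well, whose highest sums were 4938 and 163 CPM. Mesothelial genes, which mark the outer surface, summed to 12.02 and 20.02 CPM untreated and 63.9, 16.4 and 136 CPM under DSS, with Msln the 1 of 8 tested that rose (log2 fold change 4.37 ± 0.80 (SE), and 3.41 without replicate 3). Of 7 tested adipocyte genes edgeR called 0, with 0 at an unadjusted P under 0.05, as did DESeq2, limma and voom. Of 10 tested glial genes 1 fell, the receptor gene Erbb3, and 3 fell without replicate 3. Erbb3, at 558 and 540 CPM untreated, made up most of the summed glial level of 627 and 610 CPM. Replicate 3 was above both other DSS libraries in 9 of the 10, against 41.4% of all tested genes. The neuron, mesothelial and glial counts called with all libraries are near the shares of all tested genes, 10.9% higher and 9.54% lower. Of 4 tested skeletal muscle genes 2 fell.

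Fibroblast and matrix genes were called about as often as all tested genes, and most tested protease genes were called higher. Col4a1, a basement membrane collagen, had 164 and 185 CPM untreated and 379, 218 and 1029 CPM under DSS, a log2 fold change of 1.63 ± 0.48 (SE) with replicate 3 and 0.77 without it (edgeR adjusted P = 0.0269 and 0.0430). Its partner gene Col4a2 rose with replicate 3 (adjusted P = 0.0414 by edgeR) and was not called without it (adjusted P = 0.0927). Postn, the matrix protein periostin, fell in all 3 DSS libraries, with 386 and 462 CPM untreated and 101, 135 and 124 CPM under DSS and log2 fold changes of -1.82 ± 0.18 (SE) and -1.84. Of 22 tested fibroblast and matrix genes 2 rose and 2 fell (1 rose and 3 fell without replicate 3), shares near those of all genes. Among 14 tested endothelial genes 3 rose (Egfl7, Eng and Pecam1) and 0 fell, beside 10.9% higher and 9.54% lower over all tested genes. Without replicate 3, 1 endothelial gene rose and 3 fell, the lymphatic genes Prox1 and Lyve1 and the receptor gene Tek, whose edgeR adjusted P with all libraries were 0.551, 0.679 and 0.735. Of 17 tested genes of matrix proteases and their inhibitors 13 rose with replicate 3, and 13 rose and 1 fell, the inhibitor gene Timp2, without it. Mmp13, a collagenase, had 2.505 and 1.79 CPM untreated and 29.1, 77.7 and 125 CPM under DSS, and Mmp10, a stromelysin, had 0.358 and 0.852 CPM untreated and 13.8, 30.1 and 57.04 CPM under DSS. Replicate 3 was highest in both, and without it the log2 fold changes were 4.61 and 5.197, against 5.15 and 5.81 with it. Mmp8, the neutrophil collagenase, had 0 untreated counts, 22.9, 13.5 and 12.004 CPM under DSS, and was at least 143-fold higher. The plasminogen activator gene Plat had 9.303 and 10.99 CPM untreated and 98.5, 45.2 and 291 CPM under DSS, and Adamts1, a protease of matrix proteoglycans, had 6.44 and 9.88 CPM untreated and 51.5, 24.4 and 217 CPM under DSS, both called in both fits. In these 2 genes replicate 3 was again the highest.

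**Figure D3:**
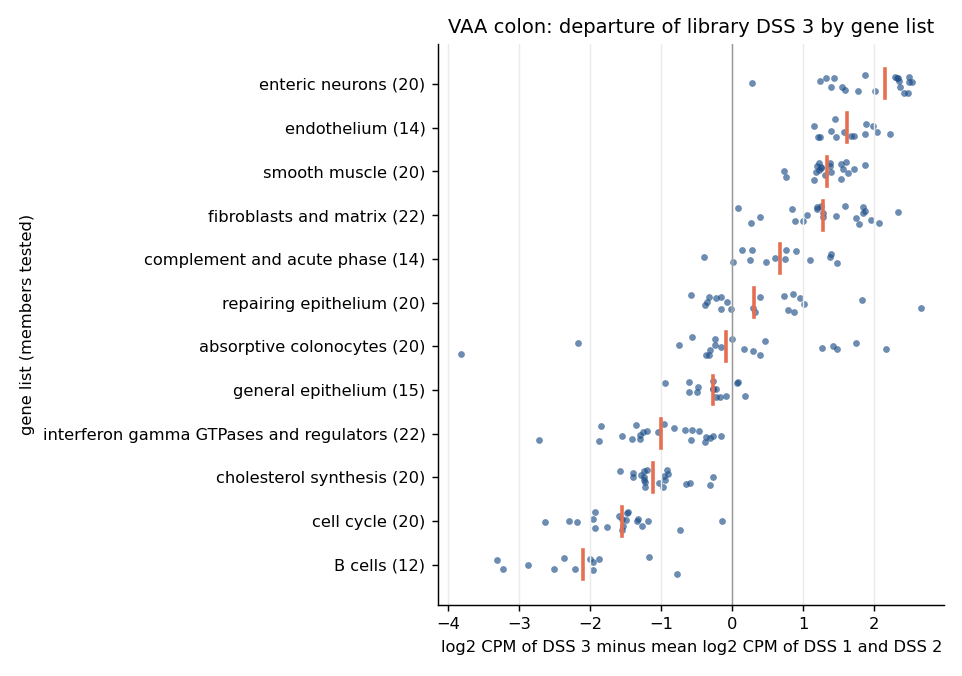
Log2 CPM of DSS 3 minus the mean log2 CPM of DSS 1 and DSS 2, with 1 point per tested gene and a red bar at the median of each list (number of genes in brackets). Medians run from 2.15 for enteric neurons to -2.11 for B cells, with absorptive colonocyte genes centred near 0.

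Over all genes, 3423 of 17477 (19.6%) were more than 2-fold from the mean of replicates 1 and 2 in replicate 3, 2199 higher and 1224 lower. The same count was 874 (5.0%) for replicate 1 and 1849 (10.6%) for replicate 2 against the mean of their 2 partners, pairs that include replicate 3. Adarb1, an RNA-editing enzyme, was the gene highest in replicate 3 relative to the others among genes whose mean log2 CPM reached 2, with 6.15 and 6.899 CPM untreated and 8.19, 5.15 and 55.5 CPM under DSS. Fmo2, a flavin monooxygenase, had 73.3 and 74.7 CPM untreated and 32.3, 22.1 and 192 CPM under DSS, and Reln, the secreted guidance protein reelin, had 29.2 and 22.998 CPM untreated and 13.7, 10.3 and 79.6 CPM under DSS. In both the first 2 DSS libraries were below the untreated pair and replicate 3 above it, so that the log2 fold change of Fmo2 was 0.14 with replicate 3 and -1.45 without it (edgeR adjusted P = 0.905 and 1.57e-04). The other genes of the 10 highest were Cyp2e1, Galnt15, Apod, Hspb7, Adamts4, Spock2 and Brinp2. At the other end Aqp8, a water channel of the colonic surface (chromosome 7, 123462291 to 123468004, plus strand), had 336 and 298 CPM untreated and 34.2, 106 and 4.13 CPM under DSS. It was lower than untreated in every DSS library and lowest in replicate 3, and it fell in both fits, by 2.71 and 2.19 on the log2 scale. St3gal4, a sialyltransferase, had 197 and 237 CPM untreated and 216, 298 and 36.2 CPM under DSS, with replicate 3 alone below the rest. Of the 10 lowest, Bank1, Pax5, Ikzf3, Cd79b and H2-Ob are genes of B cells, whose summed level also differed between the untreated libraries, at 43.6 and 138 CPM.

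Leaving out replicate 3 changed which genes were called. Of 17361 genes tested in both fits 3296 were called in the same direction with and without it and 0 in opposite directions. A further 267 were called only with it, 151 higher and 116 lower, and 1606 only without it, 941 higher and 665 lower. The fitted common dispersion fell from 0.0457 to 0.0267 when it was left out. The 2 fits share all other libraries, so the 0 calls in opposite directions are little of a test. Of the genes tested in both fits 2327 had log2 fold changes of opposite sign, 0 of them called with replicate 3. Among called genes 93 had log2 fold changes that differed by over 1 between the fits. Of the 941 higher calls gained, 920 had replicate 3 below both other DSS libraries, and of the 665 lower calls gained, 654 had it above both. Of the 151 higher calls made only with it, 147 had it above both others, and of the 116 lower calls, 89 had it below both. Over all tested genes replicate 3 was below both others for 41.7% and above both for 41.4%. Such counts follow largely from the selection, since a call that depends on replicate 3 needs that library to lie apart. They are therefore a description only. Sparcl1, a matrix glycoprotein of vessels and stroma, had 226 and 264 CPM untreated and 40.4, 47.6 and 194 CPM under DSS. Its log2 fold change was -1.39 ± 0.51 (SE), adjusted P = 0.0737, with replicate 3 and -2.48, adjusted P = 6.20e-05, without it (edgeR). Fbxo32, a ubiquitin ligase of muscle wasting, went from -1.47 to -2.45 (edgeR adjusted P = 0.0637 and 3.20e-04), at 265 CPM in replicate 3 and 55.3 and 78.5 CPM in the others. Egr1, an immediate early transcription factor, had 17.2 and 12.01 CPM untreated and 23.96, 27.3 and 145 CPM under DSS. Replicates 1 and 2 were slightly above the untreated pair, and the gene rose only with replicate 3 (log2 fold change 2.15 ± 0.68 (SE), adjusted P = 0.0395, against 0.81, adjusted P = 0.110, by edgeR). Itgb8, an integrin chain that activates TGF-beta, was called in the same way, at 69.9 CPM in replicate 3 and 15.5 and 12.1 CPM in the others. The part of the sampled tissue, RNA quality or depth of this library in these differences was not tested.

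**Figure D4:**
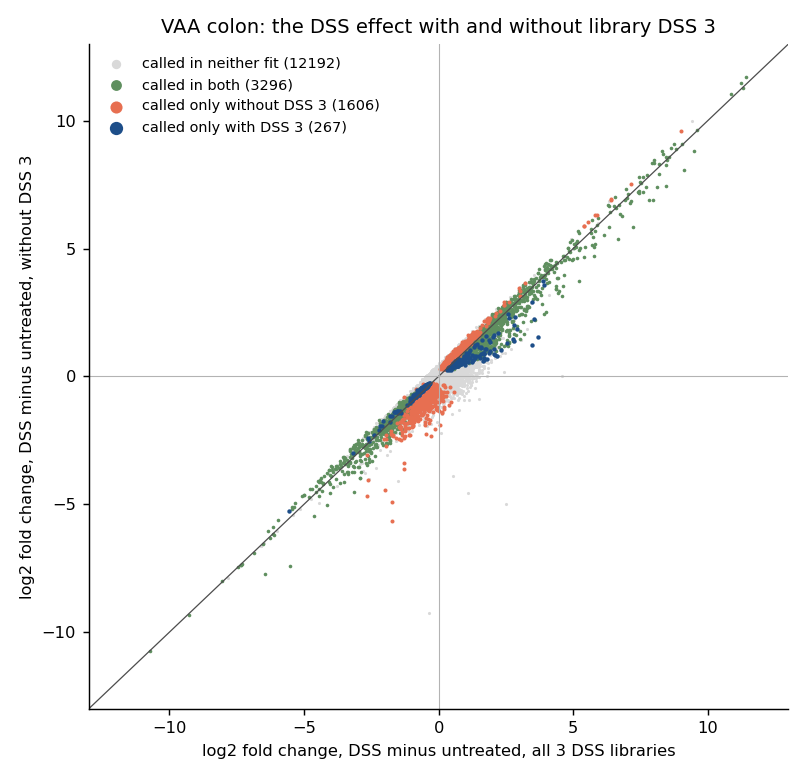
Log2 fold change of each gene with all 3 DSS libraries (horizontal) and without DSS 3 (vertical), with 1 point per gene tested in both fits and a diagonal of equality. The 3296 genes called in both fits (green) follow the diagonal, the 1606 called only without DSS 3 (orange) lie farther from 0 on the vertical axis, and the 267 called only with it (blue) lie nearer to 0 there.

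Whether the VAA response differed from the WT and KO responses was tested as a difference between DSS effects, which share no library. Against WT edgeR called 0 of 17477 genes (0%), 1259 at an unadjusted P under 0.05, and DESeq2, limma and voom called 0 as well (1327, 1136 and 1503 unadjusted). A list median that differed, such as that of smooth muscle (-1.16 in VAA and -2.40 in WT) or enteric neurons (0.91 and -0.33), thus held no called gene. Without VAA DSS replicate 3 the VAA medians of these lists were -1.87 and -0.11, nearer to those of WT. Against KO 12 genes (0.0687%) were called, 8 with a higher effect in VAA (0.0458%) and 4 with a lower one (0.0229%). All 12 were called without VAA DSS replicate 3 as well, among 88 genes. The WT untreated replicate 2 and KO untreated replicate 2 libraries had 914 and 868 counts of the Y-linked gene Ddx3y, against 5 to 20 in the other 13, so by this gene sex was mixed in those 2 groups and not in VAA. Its part in these differences was not tested. The count against KO depended on single libraries. It was 0 without any 1 of the untreated libraries of WT or VAA, KO untreated 2, WT DSS 1, VAA DSS 1 or a KO DSS library, and 1 without KO untreated 1. It was 7 without WT DSS 2, 46 without WT DSS 3 and 837 without VAA DSS 2, and 0 when only the VAA and KO groups were fitted.

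The 8 genes whose DSS effect was higher in VAA than in KO all rose in VAA. Lcn2 was at 2.25, 2.32 and 1.56 CPM in KO DSS libraries and 37.1, 70.6 and 42.7 CPM in WT DSS libraries, against 91.1, 37.1 and 122 CPM in VAA. Its log2 fold change was 6.74 in VAA, 6.34 in WT and 1.15 in KO, a difference to KO of 5.58 ± 0.90 (SE) (edgeR adjusted P = 0.0484). Ereg, the growth factor epiregulin (chromosome 5, 91074622 to 91093646, plus strand), was at 9.59 and 8.86 CPM untreated and 70.4, 39.5 and 96.03 CPM under DSS in VAA, and at 13.97 and 10.8 and then 10.7, 8.53 and 10.6 CPM in KO. In KO the untreated and DSS libraries lay next to each other, the DSS libraries slightly lower, and the effects differed by 3.21 ± 0.46 (SE) (edgeR adjusted P = 0.0409). Areg, its relative amphiregulin, was at 21.5 and 35.7 CPM in untreated KO and 18.8, 18.6 and 14.05 CPM in KO DSS libraries, while in VAA it rose from 10.2 and 12.4 to 37.7, 32.8 and 31.6 CPM. Grem1, a secreted BMP antagonist of crypt fibroblasts, was at 199, 190.4 and 303 CPM in VAA DSS and 41.02, 32.3 and 45.05 CPM in KO DSS libraries, from like untreated levels of 52.7 and 65.3 and 59.6 and 65.2 CPM. Mmp9, a gelatinase of neutrophils, the serum amyloid gene Saa3, the interferon-induced membrane gene Ifitm1 and the myeloid receptor gene Cd300lf had differences to KO on the log2 scale of 4.31, 3.75, 2.60 and 2.35. Genes with a lower effect in VAA fell there more than in KO. Thrb, a thyroid hormone receptor, was at 50.6 and 50.3 CPM untreated and 14.99, 20.6 and 15.6 CPM under DSS in VAA, and at 43.3 and 42.3 and 36.4, 38.1 and 40.4 CPM in KO (difference -1.40 ± 0.21 (SE), edgeR adjusted P = 0.0409). Otc, a urea cycle enzyme, had 3, 4 and 0 counts in VAA DSS libraries and 2.71, 2.59 and 3.27 CPM in KO ones (difference -4.08 ± 0.57 (SE)). Mettl7a2 had 0 counts in all 3 VAA DSS libraries and 244 and 143 untreated, so it was at least 222-fold lower under DSS, and it was at 4.34, 1.64 and 2.53 CPM in KO DSS libraries. In WT its DSS libraries were at 0.292, 0.307 and 0.649 CPM, and it has close paralogs, so read assignment is uncertain.

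**Figure D5:**
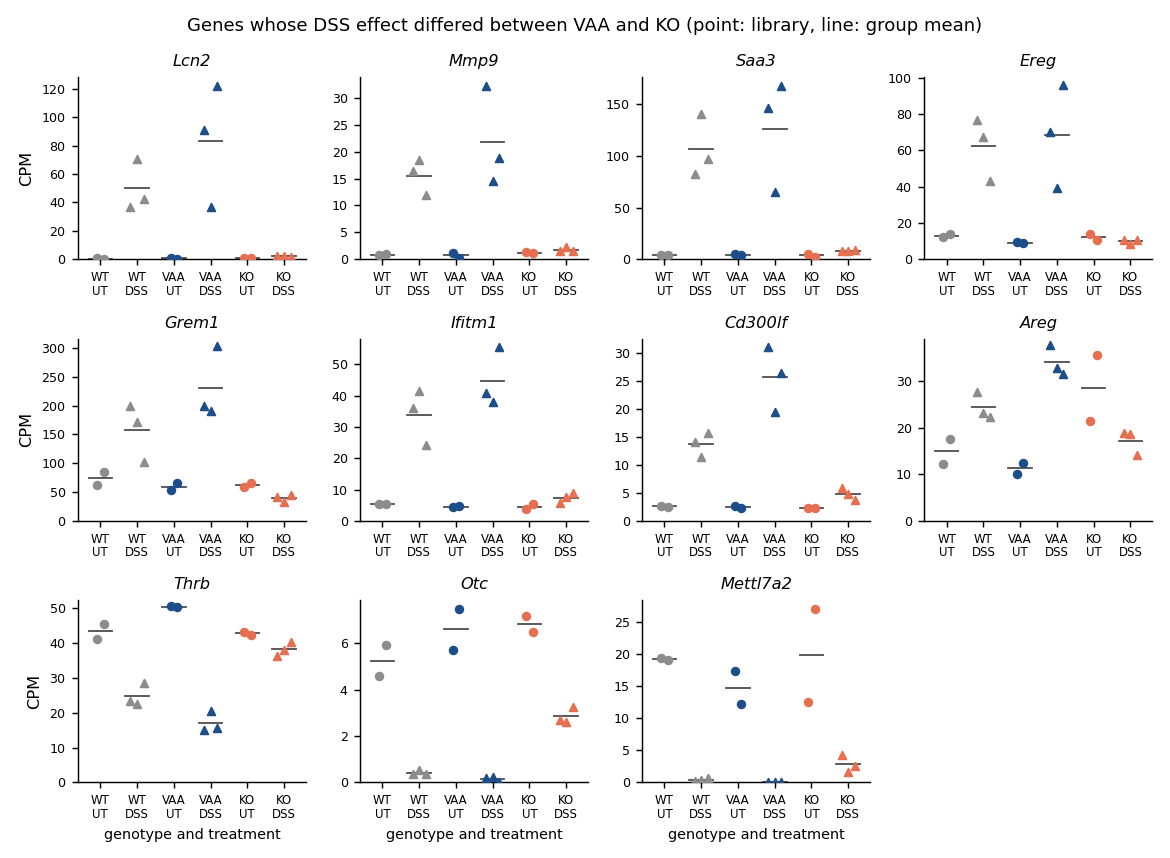
CPM of 11 of the 12 genes whose DSS effect differed between VAA and KO, by genotype and treatment (UT, untreated), with 1 point per library (circles untreated, triangles DSS) and a line at each group mean. In the first 8 panels VAA DSS libraries rise far above untreated while KO DSS libraries lie much nearer to their untreated level, and in the last 3 VAA DSS libraries fall lower than KO DSS libraries.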

How the data were processed

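Bulk RNA from colon was sequenced in 15 libraries, of which the 5 VAA libraries are described. The authors deposited whole-number expected counts per gene symbol, estimated with kallisto 0.46, and a table of log2 CPM for 17531 genes; kallisto and mm10 are named in the submitters' processing notes, and no source used here gives the gene annotation. Total counts of the 15 libraries ranged from 10.56 to 17.54 M, so genes with few counts have wide errors, and the intervals and floors of 3 counts cover counting error only.

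The expected counts were tested with edgeR 4.0.16 (R 4.3.3), after trimmed mean scaling and filterByExpr, which left 17477 of 32544 symbols. One mean per group was fitted over all 15 libraries, with no covariates, giving 9 residual degrees of freedom. The DSS effect in VAA and its differences from those in WT and KO were quasi-likelihood contrasts, adjusted by Benjamini-Hochberg over all tested genes at 0.05. Each SE is the absolute log2 fold change divided by the square root of the quasi-likelihood F statistic. It is therefore approximate, above all where a group has few counts. The method was tested on simulated counts. Departures of VAA DSS replicate 3 were log2 CPM differences with a prior count of 2. Alternatives used other scaling, filters, models (DESeq2 1.42.0, and limma 3.58.1 on the deposited log2 CPM or with voom and quality weights), samples or a replicate block.

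Gene lists (40 lists, 657 genes, 620 tested) and members were chosen with earlier results of these data known. Named genes are Tert, the 12 highest and 12 lowest non-overlapping called genes whose mean log2 CPM reached 2, up to 5 called members of a list by smallest P (up to 2 where none was called), the 6 highest and lowest called differences, the 10 highest and lowest in replicate 3, and 8 each called only with or only without it. Predicted models, receptor segments and genes of identical counts were left out of these. A few genes that this rule names are not reported here. Other list members named were chosen after their values were seen. Promoters are RefSeq sequences, searched on both strands for the kappaB site, GAS element and CArG box.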

Additional observations from a re-analysis of the deposited data

Results flagged for a closer look

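The difference between the DSS effects of VAA and KO colon passed edgeR's test of that difference, at an adjusted P of 0.0409 or 0.0484, for 12 genes. On the log2 scale the effect in VAA minus that in KO was 5.58 for Lcn2, 4.31 for Mmp9, 3.75 for Saa3 and 3.21 for Ereg. It was 2.63 for Grem1, 2.60 for Ifitm1, 2.35 for Cd300lf and 2.33 for Areg. It was -1.40 for Thrb, -4.08 for Otc and -7.91 for Mettl7a2, the last a fitted value that depends on the prior count because the VAA DSS libraries were at 0. Of 23 alternatives run, each of these genes was called in 7 (Mettl7a2) to 11 (Areg). The WT effects of Lcn2, Saa3 and Mmp9, at 6.34, 4.82 and 4.12, lay nearer to those of VAA (6.74, 4.86 and 4.83) than to those of KO (1.15, 1.10 and 0.51). Those of Ereg, Grem1, Ifitm1, Cd300lf, Areg and Otc also lay nearer to VAA. The WT effects of Thrb and Mettl7a2, at -0.81 and -5.46, lay nearer to KO (-0.16 and -2.81) than to VAA (-1.56 and -10.72). The number of called genes was between 0 and 837 when 1 library was left out. The part of sex was not tested.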

How the results depend on the processing

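For the DSS effect in VAA, 3571 calls became 1089 when the VAA groups were fitted alone and 1789 to 4902 when 1 library was left out. Fitting the VAA groups alone and without DSS replicate 3 gave 3550, of which 2632 were among the 3571. Other scaling, filters and models, and leaving out genes of identical counts, gave 3321 to 5076. For the difference between VAA and KO, 12 calls became 107 with no expression filter, 539 with DESeq2, 115 with limma on the deposited log2 CPM, 146 with voom quality weights and 0 when only those groups were fitted. Leaving out 1 library gave 0 to 837. The cause was not tested. The difference between VAA and WT gave 0 calls in every alternative run. Same-numbered replicates were not shown to be pairs. Of 33 correlations of their deviations 8 exceeded 0.1, among them all 6 between untreated libraries. Deviations in a group of 2 libraries mirror each other, so 0.138, 0.312 and 0.28 each appear for both replicate numbers and are not independent. Correlations between VAA untreated and VAA DSS libraries were 0.0242 and 0.0738. A replicate block gave 3578 calls for the DSS effect in VAA, 3210 of them among the 3571, and 0 for the difference between VAA and KO. Of 161 named genes called for the DSS effect 0 changed direction in the alternatives run, and 96 were called when the VAA groups were fitted alone, 111 and 115 without untreated replicate 1 or 2 and 150 without DSS replicate 3. Genes more than 2-fold from the other DSS libraries in replicate 3 numbered 3423, and 3438 to 3694 under other scaling, prior count or without genes of identical counts. Depth limits genes with few untreated counts, for which bounds or counting intervals are given.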
